A study of Mus musculus with 20 samples.

Results

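The enzymes of cholesterol synthesis and other targets of SREBP2 were followed across 5 tissues and 4 diets of the mouse. The group was a list of 28 genes chosen by name and not by a measured value, though earlier results of these data were known. It held 8 of the mevalonate pathway, 11 of the squalene and sterol steps, 4 regulators and 5 other targets. All 28 were found among the 21154 named genes of the array, and all were well above background on all 20 arrays. The mice were male C57BL/6J, put on their diets at 5 weeks of age and kept on them for 13 weeks. The control diet (CD) gave 10% of its energy as fat and the high fat diet (HFD) 60%. Another diet was the HFD carrying 2% by weight of porphyran (HFD+PP), the sulfated polysaccharide of the edible red alga nori, and the last was the HFD carrying 2% of a nori extract (HFD+Ex). The tissues were liver, ileum, colon, brown fat and the white fat of the mesentery. For each tissue and diet, RNA of 7 mice was pooled and put on 1 array, so each diet within a tissue is 1 value with no replicate check, and differences between diets carry no test. The same 7 mice gave all 5 tissues of their diet.

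Cholesterol is built from acetyl-CoA through mevalonate, isoprenoid units, squalene and lanosterol. The transcription factor SREBP2 (gene Srebf2) is held in the endoplasmic reticulum by its partner SCAP and the INSIG proteins while the membrane is rich in sterol. When sterol falls, SCAP carries it to the Golgi, where proteases free the active part, which switches on the genes of the pathway. Insig1 is itself such a target, and its product closes the feedback. SREBP1 (gene Srebf1) works in the same way but chiefly on fatty acid synthesis.

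Levels are given as log2 signal minus the 75th percentile of the same array, so they compare 1 gene across arrays and not one gene with another. A gene was counted as risen or fallen between a pair of arrays at a difference of at least 2-fold. From replicate spots, the technical SD of such a difference was 0.093 log2, which holds no variation between mice or pools. Each tissue carried its own markers: the summed linear level of 6 brown adipocyte markers was 2483 to 3070 on the brown fat arrays, and that of 8 hepatocyte markers 6359 to 6697 on the liver arrays. The mesenteric fat arrays also carried genes of exocrine pancreas, lymphocytes and gut epithelium at levels that differed between diets, given beside the results in that tissue. The arrays filled 4 slides. Liver, ileum and colon each lay on 1 slide, whereas in mesenteric fat CD and HFD lay on one and the supplements on another, and in brown fat HFD+Ex lay apart from the other 3.

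Promoter stretches of 5 members are shown here for the short elements that SREBP2 and its partner NF-Y are known to bind. Promoter windows from RefSeq (GRCm38.p6) were at hand for 24 of the 28 genes, but not for Fdps, Fdft1, Sqle and Stard4. The 250 bases before the start were searched on both strands. The sterol regulatory element was searched as TCACNCCA and the NF-Y box as CCAAT. The sterol element was found in 3 of the 24 (12.5%), against 4.2% of 27025 genes. The NF-Y box was found in 21 of the 24 (87.5%), against 37.5% of genes, and no match of one element shared a base with a match of the other. Such a match is a description of the letters. The stretches below run 5′ to 3′ on the strand of the gene. Capitals mark the matches, and ATTGG is the box read on the other strand. Hmgcs1 (chr13:119690166-119690236, plus strand), Srebf2 (chr15:82147094-82147174, plus) and Msmo1 (chr8:64733663-64733768, minus) hold the sterol element. Idi1 (chr13:8885546-8885605, plus) and Insig1 (chr5:28071182-28071232, plus) hold the NF-Y box without it in these windows.
Hmgcs1: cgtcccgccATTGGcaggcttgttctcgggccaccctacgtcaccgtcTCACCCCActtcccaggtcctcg
Srebf2: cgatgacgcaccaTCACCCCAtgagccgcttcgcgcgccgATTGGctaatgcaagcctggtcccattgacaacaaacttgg
Msmo1: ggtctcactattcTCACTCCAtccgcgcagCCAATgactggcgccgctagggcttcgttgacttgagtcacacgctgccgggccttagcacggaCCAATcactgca
Idi1: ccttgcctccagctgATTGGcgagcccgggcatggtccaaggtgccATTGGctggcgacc
Insig1: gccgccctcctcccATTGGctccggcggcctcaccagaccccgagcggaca

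Most of these genes differed more between tissues than between diets. Across the 5 tissue means a member ranged over 0.40 to 6.48 log2 (median 2.84), whereas its widest range over the 4 diets of 1 tissue was 0.25 to 2.41 (median 1.01). Hmgcs1 and Mvk were the 2 members with a wider range over diets than over tissues. These ranges were not taken over all genes, so they do not set the members apart from other genes. Liver was the highest tissue for 20 of the 28 (25% of all genes), brown fat for 4 (34%) and ileum for 4 (13.1%). In 16 of the 20 liver exceeded the next tissue (limma across all genes, diet as a block, adjusted p under 0.05). Over all genes liver was highest and above the next tissue in 14.6%. The 4 led by brown fat (Hmgcs1, Pmvk, Ggps1 and Aacs) and the 4 led by ileum (Mvd, Sqle, Srebf2 and Stard4) did not pass against the tissue next to them.

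**Figure D1:**
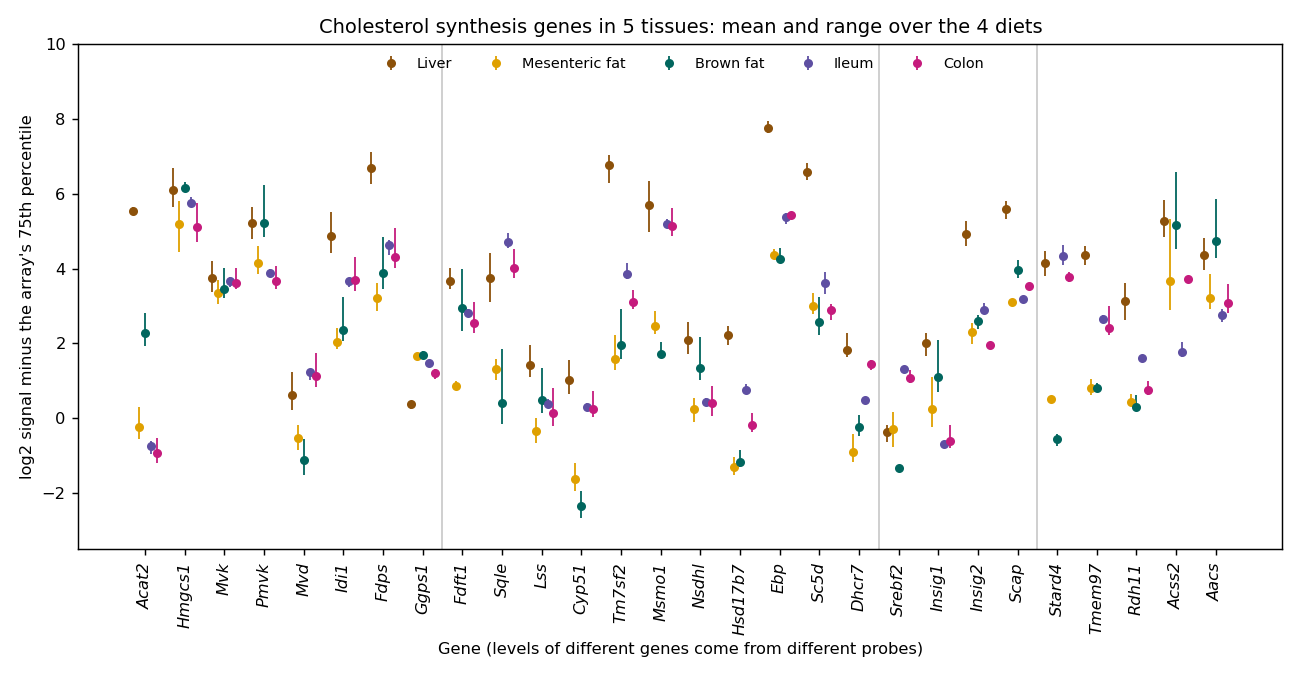
Level of each of the 28 genes in 5 tissues, as log2 signal minus the 75th percentile of the array. Points are means and bars the range over the 4 diet arrays of a tissue, and grey lines part mevalonate enzymes, sterol enzymes, regulators and other targets. Liver is the highest point for 20 genes, by the widest margin for Acat2, and Mvk is nearly level.

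Against the mean of the other 4 tissues, 21 members were higher in liver by at least 2-fold at an adjusted p under 0.05 (17.1% of all genes) and Ggps1 was lower (20.1% of all genes). The median of the members was 1.90 log2, beside 0.16 for all genes. The widest gap was that of Acat2, the cytosolic thiolase that joins acetyl-CoA units, at 5.46 ± 0.14 log2 (SE, adjusted p = 1.54e-13 in limma). Among the sterol steps, the reductase Tm7sf2 was higher by 4.15 ± 0.20, the desaturase Sc5d by 3.57 ± 0.16 and the isomerase Ebp by 2.90 ± 0.09. Ggps1, which makes the geranylgeranyl chain for protein prenylation instead of sterol, had −1.14 ± 0.07 (adjusted p = 8.44e-10 in limma). In a fit without colon and with the slide as a block, 15 members in place of 21 were higher in liver.

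The regulators did not share one tissue order. Scap (2.14 ± 0.07), Insig2 (2.48 ± 0.11) and Insig1 (2.00 ± 0.25) were higher in liver than in the mean of the others, whereas Srebf2 itself was at −0.56 ± 0.12 there (adjusted p = 7e-04 in limma). Srebf2 was highest in ileum and colon, at 1.55 ± 0.12 and 1.24 ± 0.12 above the mean of the other tissues, and lowest in brown fat at −1.78 ± 0.12. That order belongs to the brighter of its 2 probes: the dimmer averaged −1.02 over the diets in mesenteric fat, −1.59 in colon, −1.86 in brown fat, −1.86 in ileum and −2.23 in liver. Brown fat had 3 members higher (19.9% of all genes) and 13 lower (16.3%). Those higher were the thiolase Acat2 and 2 synthetases that activate short acids, Acss2 for acetate and Aacs for acetoacetate. Mesenteric fat had none higher (15.6%) and 15 lower (14.1%). Ileum had 5 higher (13.6%) and 4 lower (14.5%), with Sqle, squalene epoxidase, at 2.34 ± 0.29 and the cholesterol carrier Stard4 at 2.37 ± 0.12. Colon had 6 higher (13.0%) and 4 lower (14.5%). No other tissue lay on the slide of the colon arrays. For colon, its Srebf2 value included, tissue and slide therefore cannot be told apart.

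In brown fat the pathway was lower on the high fat diet. From CD to HFD, 11 of the 28 genes fell by at least 2-fold (3.08% of all genes measured) and 0 rose (6.27%). The median of the members was −0.73 log2 and that of all genes −0.13, and 26 of 28 members were below 0, as were 60.1% of all genes. At −0.5 log2 or less lay 17 members (14.8% of all genes). The CD array was the highest of the 4 brown fat arrays for 24 members, as it was for 49.0% of all genes. In such bulk tissue, fewer cells of a type and less RNA per cell cannot be told apart.

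**Figure D2:**
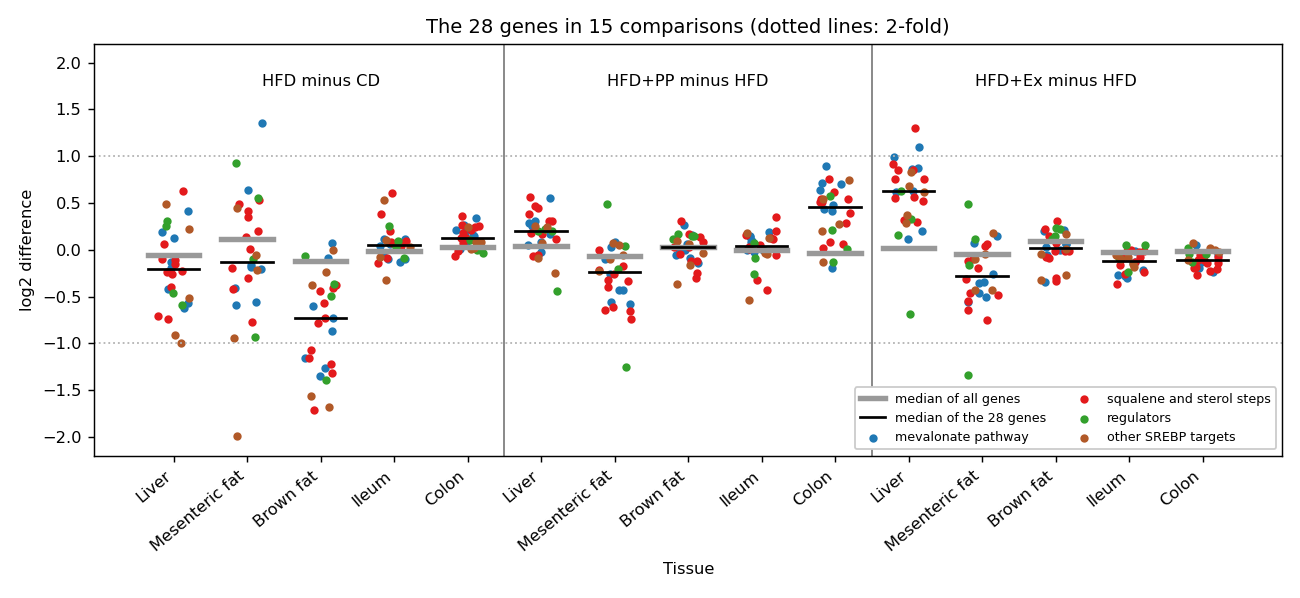
Difference in log2 between a pair of arrays for each of the 28 genes (points, coloured by role) in 5 tissues and 3 comparisons. Black bars are the median of the 28, grey bars that of all genes, and dotted lines 2-fold. The members lie lowest in brown fat on HFD against CD (median −0.73) and highest in liver on HFD+Ex against HFD (median 0.62).

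Of the 8 mevalonate genes, 3 fell in brown fat. With the authors' values only Pmvk of them passed, and with quantile normalization none did. Pmvk, phosphomevalonate kinase, read 6.24 on CD, 4.88 on HFD, 4.84 on HFD+PP and 4.94 on HFD+Ex, a 2.56-fold fall from CD to HFD. Idi1, the isomerase of the isoprenoid unit, read 3.23, 2.08, 2.08 and 2.08 on the same diets in that order and fell 2.22-fold. Fdps, which makes farnesyl diphosphate, read 4.85, 3.59, 3.45 and 3.62 and fell 2.40-fold. In each of these genes the CD array stood above all 3 high fat arrays, which lay close together. Hmgcs1, which makes HMG-CoA near the start of the pathway, differed from them, at 6.04 on CD, 6.11 on HFD, 6.17 on HFD+PP and 6.31 on HFD+Ex.

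Of the 11 squalene and sterol genes, 5 fell. Sqle, which adds oxygen to squalene and is a slow step of the route, read 1.86 on CD, 0.14 on HFD, −0.15 on HFD+PP and −0.16 on HFD+Ex, a 3.28-fold fall. Fdft1, squalene synthase, read 3.996, 2.68, 2.81 and 2.34 and fell 2.50-fold. Lss, which closes the ring to lanosterol, read 1.33, 0.26, 0.15 and 0.24 and fell 2.10-fold. The order was again CD first, with the high fat arrays together below it. Tm7sf2 read 2.93, 1.70, 1.59 and 1.62 (2.34-fold), and the sterol dehydrogenase Nsdhl 2.17, 1.02, 1.05 and 1.17 (2.22-fold). The other 6 sterol genes (Cyp51, Msmo1, Hsd17b7, Ebp, Sc5d and Dhcr7) lay between −0.78 and −0.38 log2. A second probe of Fdft1 had 0.37 but was very dim, at −4.50 on CD and −4.13 on HFD, so the fall of Fdft1 rests on 1 probe. Lss, Tm7sf2 and Nsdhl did not pass with quantile normalization or with the authors' values. The second probes of Pmvk, Tm7sf2, Nsdhl and Acss2 differed by −1.65 to −1.04.

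The feedback gene Insig1 read 2.09 on CD, 0.70 on HFD, 0.81 on HFD+PP and 0.82 on HFD+Ex in brown fat, a 2.62-fold fall. Of the 5 other targets Acss2 and Aacs fell, while Stard4, Tmem97 and Rdh11 lay between −0.38 and 0.0 log2 from CD to HFD. Acss2 read 6.59, 4.90, 4.54 and 4.63 on the 4 diets in the same order and fell 3.22-fold. Aacs read 5.86, 4.29, 4.36 and 4.47 and fell 2.96-fold. Neither supplement moved these genes back towards CD: against HFD the 11 differed by −0.37 to 0.13 log2 on HFD+PP and by −0.34 to 0.17 on HFD+Ex, and 0 of 28 members passed 2-fold in either (1.51% and 0.846% of all genes rose, 2.18% and 3.31% fell). The HFD+Ex array lay on another slide, where slide and diet cannot be told apart.

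Genes of fatty acid synthesis fell too. Of 13 measured genes of fatty acid synthesis under SREBP1, 8 fell from CD to HFD in brown fat and 0 rose (median −1.11 log2), among them Fasn, fatty acid synthase (2.88-fold), Me1, malic enzyme (3.31-fold), and Acly, which splits citrate into acetyl-CoA (2.88-fold). Srebf1 had −0.46. Of 5 measured genes of sterol esterification and transport, Soat1, which esterifies cholesterol, fell (2.77-fold) and 0 rose, with a median of −0.12. Of 6 measured targets of LXR, the receptor that senses oxysterols, and of 9 genes of SREBP processing and sterol-dependent degradation, 0 passed in either direction.

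Other markers moved with this comparison. Of 8 macrophage markers 7 rose in brown fat on HFD, with a summed level of 22.8 on CD, 76.1 on HFD, 50.2 on HFD+PP and 34.4 on HFD+Ex, and 7 of 10 cell cycle genes rose (4.56, 11.9, 8.48 and 6.98). Of 6 brown adipocyte markers 1 fell and 0 rose (3070, 2483, 2644 and 3017). Of 8 hepatocyte markers 7 rose and 1 fell, at a summed level of 15.9 on CD and 12.1 on HFD. Their part in the result was not tested. The count in brown fat rests on the scaling: with quantile normalization 5 of 28 fell (2.84% of all genes, with 6.27% risen), and with the values as scaled by the authors 6 fell (1.77%, with 9.79% risen), where the median of all genes was 0.15 instead of −0.13. Fdft1, Sqle, Insig1, Acss2 and Aacs fell under both.

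**Figure D3:**
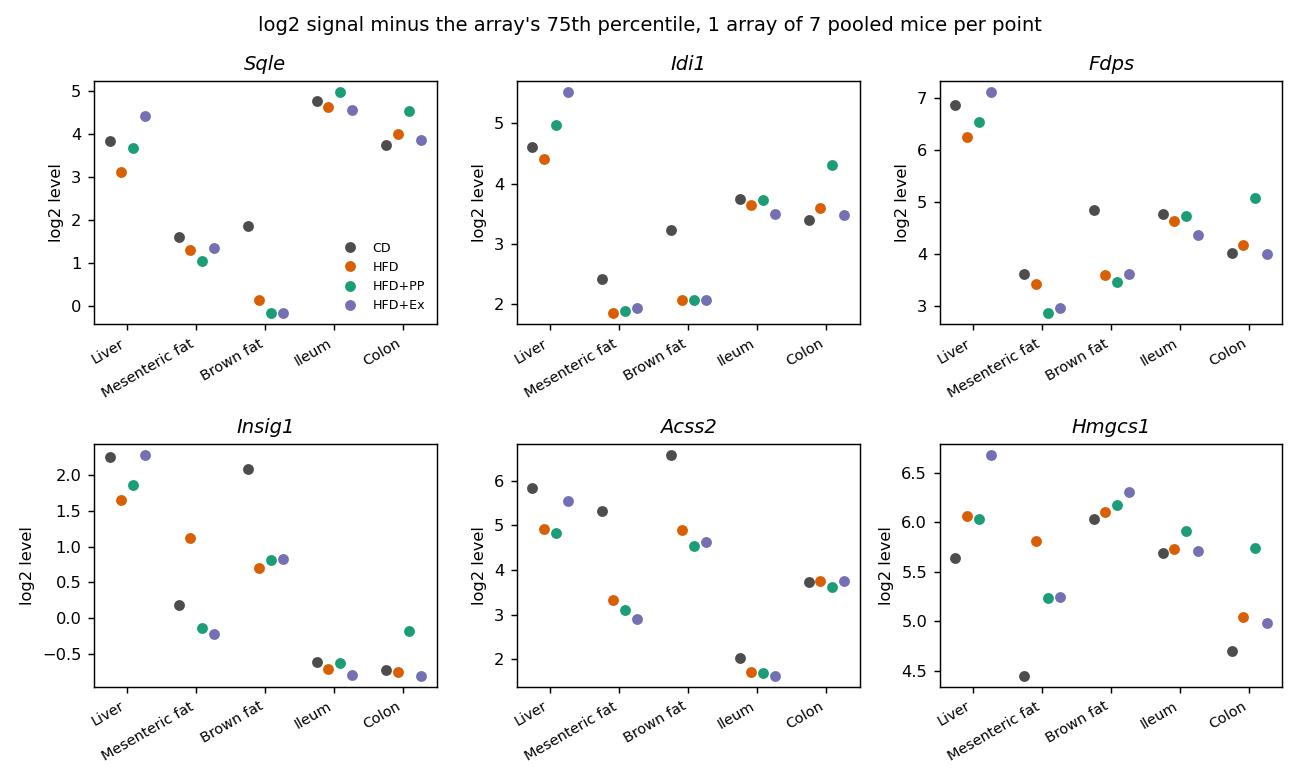
Level of 6 genes on each of the 20 arrays, as log2 signal minus the 75th percentile of the array, with 1 point per pool of 7 mice. In brown fat Sqle, Idi1, Fdps, Insig1 and Acss2 are highest on CD, and in liver Sqle, Idi1, Fdps and Hmgcs1 are highest on HFD+Ex.

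In liver the pathway was highest on the nori extract. From HFD to HFD+Ex, Sqle and Idi1 rose (1.43% of all genes) and 0 of 28 fell (1.63%). The median of the members was 0.62 log2, beside 0.02 for all genes, and 27 of 28 were above 0, as were 54.2% of all genes. At a lower threshold of 0.5 log2, 19 members were higher (4.31% of all genes) and Insig2 was lower (6.8%). The HFD+Ex array was the highest of the 4 liver arrays for 22 members, against 17.7% of all genes, and the HFD array was the lowest for 17, against 37.9%. All 4 liver arrays lay on 1 slide.

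Sqle read 3.83 on CD, 3.12 on HFD, 3.68 on HFD+PP and 4.42 on HFD+Ex in liver, and rose 2.47-fold from HFD to HFD+Ex. Idi1 read 4.61, 4.41, 4.97 and 5.51 and rose 2.14-fold, a call that was lost with quantile normalization, where Sqle alone passed. Both genes were lowest on HFD and stood above the CD level on HFD+Ex. Mvd, which decarboxylates mevalonate diphosphate, lay just under the threshold at 0.99 log2. The demethylase Cyp51 had 0.92, Fdps 0.87 and Pmvk 0.87. By role, the median was 0.75 for the mevalonate genes, 0.75 for the sterol genes, 0.25 for the regulators and 0.62 for the other targets.

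No regulator differed by 2-fold between any of the liver diets compared. Srebf2 read −0.64 on CD, −0.39 on HFD, −0.18 on HFD+PP and −0.23 on HFD+Ex. Insig1 read 2.25, 1.66, 1.86 and 2.28, lowest on HFD and about equal on CD and HFD+Ex. Insig2, which codes for the other INSIG protein, read 4.97, 5.28, 4.84 and 4.59. Between HFD and HFD+Ex it ran opposite to Insig1. It was highest on HFD and lowest on HFD+Ex, where it was the 1 member below 0 (−0.69). Both genes were higher on CD than on HFD+PP. Scap read 5.80, 5.34, 5.55 and 5.67.

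Porphyran alone gave smaller differences in liver. From HFD to HFD+PP 0 of 28 members passed (0.579% of all genes rose, 1.54% fell), with a median of 0.20, and Sqle and Idi1 stood highest at 0.56 each. No other member reached 0.5 log2 (4.54% of all genes). From HFD+PP to HFD+Ex the median was 0.44, with 0 passing (1.35% rose, 0.509% fell) and 11 members at 0.5 log2 or more (3.15%). From CD to HFD 0 passed (3.45% rose, 1.35% fell) and the median was −0.21. There 8 members lay at −0.5 log2 or less (8.03%), and Msmo1 alone at 0.5 or more (10.0%). Rdh11, a retinol dehydrogenase, lay just under the threshold at −0.998. Of the 14 fatty acid genes 7 fell from CD to HFD in liver, with Fasn at −1.78 log2 and Pnpla3, a lipid droplet acyltransferase and lipase, at −4.08. In the comparison of HFD+Ex with HFD, 0 of these 14 passed, with Fasn at 0.08 and Srebf1 at −0.21. Srebf1 had 0.37 from CD to HFD and −0.39 from HFD to HFD+PP.

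Markers of other cells also differed between the liver arrays. From HFD to HFD+Ex 4 of 8 smooth muscle markers fell (summed level 16.9 on HFD and 8.81 on HFD+Ex), as did 3 of 8 macrophage markers (49.9 and 44.8) and 4 of 5 measured adipocyte markers (49.9 and 16.8). The 8 hepatocyte markers had a median of 0.03 with 0 passing. What part these had in the result was not tested.

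**Figure D4:**
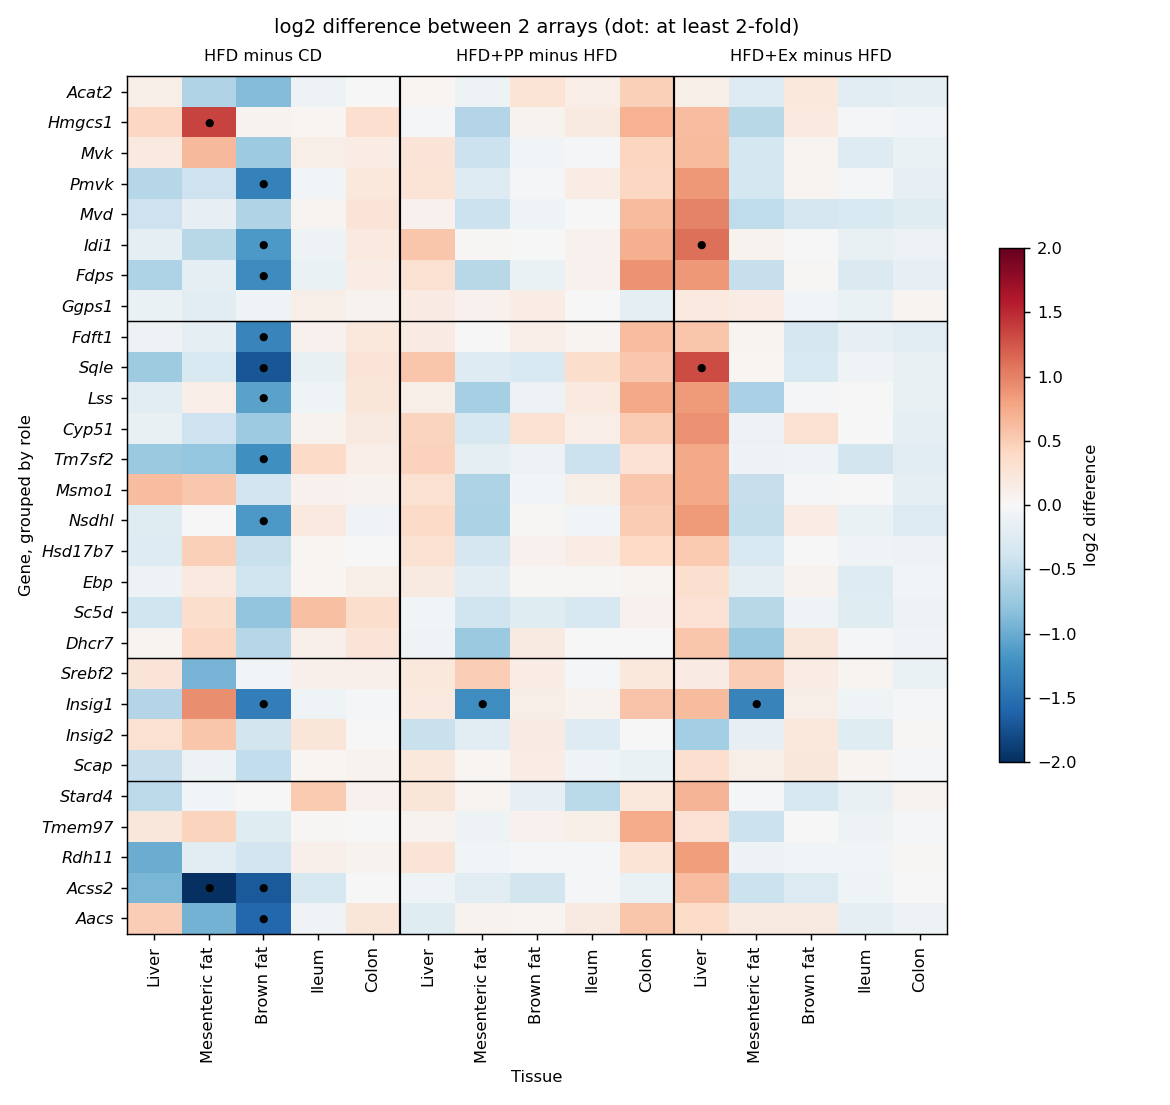
Difference in log2 between a pair of arrays for the 28 genes (rows, grouped by role) in 5 tissues and 3 comparisons (columns), red where the first diet is higher and blue where it is lower. Dots mark differences of at least 2-fold: 11 in brown fat, 4 in mesenteric fat and 2 in liver.

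In mesenteric fat the genes did not move as one. From CD to HFD, Hmgcs1 rose (8.88% of all genes) and Acss2 fell (8.46%), with a median of −0.13 over the members and 0.12 over all genes. With the mean of all probes of a gene the members' median was 0.059, so its sign is not settled. Hmgcs1 read 4.46 on CD, 5.81 on HFD, 5.23 on HFD+PP and 5.25 on HFD+Ex, a 2.56-fold rise from CD to HFD. Acss2 read 5.31, 3.33, 3.10 and 2.90, a 3.97-fold fall, and stayed low on both supplements. A second probe of Acss2 differed the same way, by −1.52. That of Hmgcs1 differed by 1.44 but was very dim, at −5.65 on CD and −4.21 on HFD. It was well above background on 16 of the 20 arrays, so it adds little to the used probe. Srebf2 and Aacs had −0.93 and −0.94, and fell past 2-fold with the values as scaled by the authors. Past 0.5 log2, 5 members were higher (25.5% of all genes) and 6 lower (16.7%). Among the 14 fatty acid genes 8 fell, with Fasn at 8.54-fold, Elovl6, an elongase, at 11.3-fold and Acaca, acetyl-CoA carboxylase, at 7.58-fold, while Srebf1 had −0.06.

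Insig1 read 0.19 on CD, 1.12 on HFD, −0.13 on HFD+PP and −0.22 on HFD+Ex in mesenteric fat. It was thus highest on HFD here, where in brown fat it was highest on CD. It was the 1 member that fell from HFD to HFD+PP, 2.38-fold (4.22% of all genes), and from HFD to HFD+Ex, 2.52-fold (3.78%), and no member rose (4.69% and 3.64%). Both comparisons share the HFD array, and both set arrays of 2 slides against each other, so that slide and diet cannot be told apart. Their medians were −0.24 and −0.28 for the members, beside −0.07 and −0.05 for all genes. At −0.5 log2 or less lay 7 members on HFD+PP (13.0%) and 6 on HFD+Ex (11.0%).

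The mesenteric fat arrays differed in what else they held. The summed level of 9 exocrine pancreas markers was 910 on CD, 16.8 on HFD, 1531 on HFD+PP and 439 on HFD+Ex, and that of 10 B and T cell markers 172, 14.4, 83.3 and 79.6. The 8 macrophage markers summed to 93.5, 275, 111 and 112, and the 10 markers of gut epithelium to 6.65, 43.2, 33.8 and 7.32. All markers of these lists were well above background on all 4 arrays. The level of Insig1 and of Hmgcs1 was highest on the array with the highest macrophage sum and the lowest pancreas sum. The part of these cells in the differences was not tested.

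The 2 probes of Srebf2 disagreed in both fats. The brighter probe, used above, had −0.06 from CD to HFD in brown fat and −0.93 in mesenteric fat. The dimmer one read −2.98 on CD and −0.81 on HFD in brown fat, 4.48-fold higher, and then −1.46 on HFD+PP and −2.17 on HFD+Ex. In mesenteric fat it read −1.87 on CD and 0.49 on HFD, 5.15-fold higher, and −1.49 and −1.20 on the supplements. It was well above background on all 20 arrays, and both probes carry the same transcript accession. In liver, ileum and colon the probes differed from each other by at most 0.40 log2 in any comparison, so the direction of Srebf2 on HFD in the fats depends on the probe, as does its order of tissues.

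In ileum no member passed 2-fold between any pair of diets. From CD to HFD, 1.57% of all genes rose and 2.33% fell, and the median of the members was 0.05. From HFD to HFD+PP (1.97% and 0.939%) it was 0.04, from HFD to HFD+Ex (1.16% and 0.695%) −0.12, and from HFD+PP to HFD+Ex (1.31% and 2.0%) −0.18. Past 0.5 log2 lay Sc5d (0.61) and Stard4 (0.53) from CD to HFD (7.52% of all genes), and Stard4 again (−0.54) from HFD to HFD+PP (5.56%). Sqle read 4.55 to 4.96 over the 4 ileum arrays, and Srebf2 1.24 to 1.39. The median range of a member over diets was 0.23 log2 in ileum, the narrowest of the 5 tissues, beside 0.62 to 0.83 in the others. Fatty acid genes did pass in ileum: 4 of 14 fell from CD to HFD, Thrsp 8.62-fold, the desaturase Scd1 8.15-fold, Fasn 3.05-fold and Me1 2.10-fold, while Srebf1 had −0.07. Thrsp and Scd1 rose 2.44-fold and 2.32-fold from HFD to HFD+PP. Markers of adipocytes moved on the same arrays: 5 of 7 fell from CD to HFD and 6 of 7 rose from HFD to HFD+PP, with summed levels of 69.1 on CD, 21.8 on HFD, 50.4 on HFD+PP and 22.7 on HFD+Ex. Of 8 hepatocyte markers 6 fell from CD to HFD (8.94 on CD and 1.23 to 1.39 on the other diets). Their part in the ileum differences was not tested.

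In colon the pathway was highest on porphyran. From HFD to HFD+PP no member passed 2-fold (1.71% of all genes rose, 1.11% fell), but the median was 0.46, beside −0.03 for all genes, and 13 members lay at 0.5 log2 or more (6.79% of all genes). Fdps came nearest the threshold at 0.90. From HFD+PP to HFD+Ex the median was −0.60, 18 members lay at −0.5 or less (6.63% of all genes), and Fdps alone fell (1.39%), with 0 risen (1.74%). Both comparisons share the HFD+PP array, which was the highest of the 4 colon arrays for 24 members, against 32.5% of all genes.

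Fdps read 4.02 on CD, 4.17 on HFD, 5.08 on HFD+PP and 4.01 on HFD+Ex in colon, and fell 2.10-fold from HFD+PP to HFD+Ex. The porphyran array stood alone above the other 3. Hmgcs1 read 4.70, 5.04, 5.74 and 4.99, and Idi1 3.41, 3.60, 4.31 and 3.48, in the same order. Tmem97, which codes for the sigma-2 receptor, read 2.23, 2.24, 2.99 and 2.22. Insig1 read −0.72, −0.76, −0.18 and −0.80, whereas Scap (3.47 to 3.60) and Insig2 (1.95 to 1.97) hardly varied. From CD to HFD (0.45% rose, 1.7% fell) the median was 0.12, and from HFD to HFD+Ex (1.12% and 0.402%) −0.11, with 0 members passing in either. None of the 14 fatty acid genes passed from HFD to HFD+PP in colon, with Fasn at 0.28 and Srebf1 at 0.01. From CD to HFD, Thrsp and Scd1 fell 4.52-fold and 3.70-fold, with Fasn at −0.54 and Srebf1 at −0.21. On the same comparison 2 of 7 adipocyte markers fell and 1 rose (summed level 70.6 on CD and 34.6 on HFD), and 7 of 8 hepatocyte markers fell (28.1 and 9.74). Their part was not tested.

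Genes of dividing cells were higher on the same colon array. Of 10 cell cycle genes 4 rose from HFD to HFD+PP, with a summed level of 42.1 on CD, 42.8 on HFD, 81.5 on HFD+PP and 46.0 on HFD+Ex. The 8 smooth muscle markers, of which 0 passed, summed to 867, 878, 669 and 1013, and the 10 epithelial markers, of which 3 rose, to 909, 940, 1111 and 917. Their part in the colon result was not tested.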

How the data were processed

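RNA pooled from 7 mice per tissue and diet was measured on 1-colour Agilent arrays (Cy3). Per the file headers, spots were quantified by Feature Extraction 11.5.1.1 (protocol GE1_1105_Oct12). The deposited intensity values are linear, had their background subtracted within the array, and were not scaled between arrays. A value table deposited by the authors holds the same intensity values, multiplied for each array by a single factor (0.916 to 1.65 log2). It is therefore linear and uncentred, with column medians of 53.5 to 104. What set the factor is not given in the sources used here.

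The 3671 control spots and 117 to 206 outlier spots per array were left out. No spot was saturated, and 50.8% to 68.0% were well above background. Accessions were matched to RefSeq (GRCm38.p6), which named 28026 of 55681 probes and left 27655 unnamed, giving 21154 genes. The brightest probe stood for a gene, and 12 members have several. The main value was log2 processed signal minus the 75th percentile of the array. To enter a comparison a gene had to be well above background on either array. A dim side was set to the higher of its own signal and the floor of its array (−6.57 to −4.69). Where the dim side would then be the higher one, the pair was counted as no difference. A gene was called at 1 log2 or more.

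Tissues were tested with limma 3.58.1 (R 4.3.3) on all genes, with tissue and diet as terms (12 residual degrees of freedom), Benjamini-Hochberg adjustment, and a call at an adjusted p under 0.05 and 2-fold. The diet term is a block, since the 5 tissues of a diet are the same mice. It takes out what the 5 tissues of a diet share. The error behind the p-values is therefore how far the differences between tissues vary from diet to diet. In that spread, diet, pool and array cannot be told apart. The fit was tested on simulated data. Python 3.11.15, pandas 2.3.3 and numpy 2.4.6 did the rest.

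Alternatives were normexp background correction (offset 50), quantile normalization, the authors' values, scaling to bright probes, the mean of all probes, other filters, leaving out each diet, and no diet term. A threshold of 0.5 log2, subtracting the median of all genes and the slide as a block were added after seeing the data. Normexp used the median spot signal in place of the mean signal that had been planned for it.

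All members are named. All 4 arrays of a tissue are given for a member called there and for the regulators in liver. Beyond the rule, levels of Hmgcs1 in brown fat and of Hmgcs1, Idi1, Insig1, Scap, Insig2 and Tmem97 in colon were chosen after their values were seen. The members and lists were chosen with earlier results of these data known. A result on 1 gene outside the members is not reported here.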

Additional observations from a re-analysis of the deposited data

How the results depend on the processing

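With 1 pool per diet in each tissue, nothing here shows how far another 7 mice would differ, and the precision of a difference is known only between spots of an array. Of 18 member differences past 2-fold, all 18 kept their direction under the 7 alternatives in processing. Those still past 2-fold numbered 17 with normexp, 11 with quantile normalization, 13 with the authors' values, 15 with scaling to bright probes, 17 with the mean of all probes and 18 under both other filters. Those filters could not alter a member, since all 28 were well above background on all 20 arrays. The cause of the losses was not tested.

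In brown fat from CD to HFD, the genes that fell numbered 5 with quantile normalization and 6 with the authors' values, and Srebf2 was the 1 that rose with the mean of all probes. The median there was −0.55 with normexp, −0.59 with quantile normalization, −0.45 with the authors' values, −0.54 with scaling to bright probes, −0.62 with the mean of all probes and −0.60 after subtracting the median of all genes. In mesenteric fat from CD to HFD, 2 fell with quantile normalization and 3 each with the authors' values and with scaling to bright probes. The median there was −0.24 with scaling to bright probes, 0.059 with the mean of all probes and −0.25 after subtracting the median of all genes, and so has no settled sign. From HFD to HFD+PP it was −0.35 in that tissue with the mean of all probes. In liver, 1 gene rose on HFD+Ex with quantile normalization, and the median from CD to HFD was −0.12 with the authors' values. In brown fat from HFD to HFD+Ex it was −0.085 with the authors' values.

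At a threshold of 0.5 log2, liver had 1 higher and 8 lower from CD to HFD, 2 higher from HFD to HFD+PP, 19 higher and 1 lower from HFD to HFD+Ex, and 11 higher from HFD+PP to HFD+Ex. Mesenteric fat had 5 higher and 6 lower from CD to HFD, 7 lower on HFD+PP and 6 lower on HFD+Ex. Brown fat had 17 lower from CD to HFD. Ileum had 2 higher from CD to HFD and 1 lower on HFD+PP. Colon had 13 higher on HFD+PP and 18 lower from HFD+PP to HFD+Ex.

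Between tissues, the fit with no replicate block (no diet term) gave the same counts as the fit with it: liver had 21 higher and 1 lower, mesenteric fat 0 and 15, brown fat 3 and 13, ileum 5 and 4, and colon 6 and 4. Leaving out 1 diet at a time, the higher members of brown fat numbered 3 to 5, with 5 when HFD was left out. The higher members of liver numbered 17 with the authors' values (10.7% of all genes), 19 with quantile normalization (14.4%) and 19 with scaling to bright probes (13.2%). They stayed at 21 with normexp and with the mean of all probes. The lower members of liver numbered 2 with the authors' values and 0 with the mean of all probes. With colon left out, 5 members were lower in ileum without the slide as a block and 1 with it.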
